A study of Mus musculus with 12 samples.

Results

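Keratins and surface proteins that mark the duct epithelium of the pancreas were followed in the RNA of mouse islet preparations that lack *Aldh1b1*, the gene of a mitochondrial aldehyde dehydrogenase. The 9 genes are *Krt7*, *Krt8*, *Krt18*, *Krt19*, *Spp1*, *Muc1*, *Cftr*, *Epcam* and *Tspan8*. They were chosen by gene symbol, and each had 1 row among the 18351 genes of the expression table. Polyadenylated RNA of islets was sequenced in 12 libraries, 3 in each of 4 groups. The groups were *Aldh1b1* null mice at postnatal day 1 (P1), their P1 wild-type controls, null mice at 8 weeks of age and wild-type mice at 8 weeks. The null mice carry the tm1lacZ knock-in allele of *Aldh1b1*, a germline allele, so the loss is not restricted to islets or to ducts. Each P1 library pooled the islets of 3 mice and each week 8 library came from 1 mouse, so age and pooling cannot be told apart. The library numbers in the sample labels also run in a separate series for each age, which cannot be told apart from age either. Islets of all groups came from male mice and were kept for 2 h in RPMI-1640 medium with 10% fetal bovine serum before RNA was prepared.

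Keratins form the intermediate filaments of epithelia, and each filament pairs a type I keratin (*Krt18*, *Krt19*) with a type II keratin (*Krt7*, *Krt8*). *Krt8* and *Krt18* are the pair shared by simple epithelia and occur in pancreatic duct and acinar cells, while *Krt7* and *Krt19* are widely used to tell ducts from acini. *Krt7*, *Krt8* and *Krt18* have also been described in mouse beta cells. The other genes encode proteins of the duct cell surface or lumen, namely a mucin, a chloride channel, a cell adhesion molecule, a tetraspanin and a secreted phosphoprotein.

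At week 8, 7 of the 9 genes were lower in null than in wild-type islets and 1 was higher, where 15.8% of all genes tested were lower and 12.3% were higher (limma with Benjamini-Hochberg adjustment over all genes tested, adjusted p under 0.05). *Krt19*, *Cftr*, *Muc1* and *Spp1* had 9.94%, 15.4%, 23.7% and 20.7% of their mean wild-type level in null islets, and *Krt18*, *Krt8* and *Tspan8* had 35.3%, 39.9% and 48.6%. *Krt7* was higher in null islets, at 149% of the wild-type level, and *Epcam* did not pass the test. At P1 none of the 9 genes passed by limma, where 0.0658% of all genes tested did, and 5 of the 9 had a log2 fold change above 0 and 4 below. By edgeR none passed at P1 either, and by DESeq2 *Muc1* and *Cftr* did. At an unadjusted p under 0.05, 3 of the 9 genes differed at P1 by limma, namely *Krt7*, *Muc1* and *Cftr*, where 2730 of 18235 genes tested did.

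Reads assigned to genes ranged from 15212080 to 19496469 in P1 null, from 17858553 to 18342428 in P1 wild-type, from 22573618 to 26744706 in week 8 null and from 21665200 to 29248285 in week 8 wild-type libraries. *Aldh1b1* itself had 0 to 3 reads in the 6 null libraries and 40 to 121 reads in the 6 wild-type libraries. Acinar cell markers, 31 genes of digestive enzymes and their regulators, took 11.4% to 26.5% of the reads in P1 null and 2.21% to 6.91% in P1 wild-type libraries. They took 12.9% to 24.3% in week 8 null and 49.7% to 55.9% in week 8 wild-type libraries, so exocrine RNA was part of all 12 preparations and differed with genotype, in opposite directions at the 2 ages. Beta cell markers took 11.7% to 13.5% of the reads in week 8 null and 2.59% to 5.16% in week 8 wild-type libraries. The part of these differences in the results on duct genes was not tested. In bulk RNA of this kind, fewer cells of a type and less RNA per cell cannot be told apart. P1 wild-type replicate 1 stood apart, since its values relative to the other P1 libraries went down with gene length (rank correlation of -0.55 over genes, against 0.12 to 0.33 in the others). It was also the highest of the 3 P1 wild-type libraries for 7 of the 9 genes, all but *Muc1* and *Cftr*. At week 8 the same correlation was 0.0995 to 0.145 in null and -0.208 to -0.0448 in wild-type libraries, so the trend with gene length differed with genotype. After removal of this trend 8 of the 9 genes passed at week 8, 1 higher and 7 lower, where 3143 of 18126 genes were higher and 2391 lower.

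*Krt8* (ENSMUSG00000049382) and *Krt18* (ENSMUSG00000023043), the type II and type I keratins of simple epithelia, lie near each other on mouse chromosome 15. Their RefSeq start sites in GRCm38.p6 are 23874 bases apart, and they are transcribed from opposite strands. *Krt7* (ENSMUSG00000023039) lies on the same chromosome, 591939 bases from the start of *Krt8*. The promoters of these 3 keratins are shown because *Krt8* and *Krt18* changed together while *Krt7* differed in the other direction. Each runs 5′ to 3′ on the gene's own strand, with 250 bases before and 50 after the start site. Capitals mark matches, on either strand, to 5 of 10 short motifs searched, namely TATAAA (the TATA box), GGGCGG (the GC box), CACCTG (an E-box), ATCAAT (the core bound by Onecut factors) and TGGGAA (the core bound by the Notch effector Rbpj).
Krt8 promoter, chr15:102004293-102004592, minus strand: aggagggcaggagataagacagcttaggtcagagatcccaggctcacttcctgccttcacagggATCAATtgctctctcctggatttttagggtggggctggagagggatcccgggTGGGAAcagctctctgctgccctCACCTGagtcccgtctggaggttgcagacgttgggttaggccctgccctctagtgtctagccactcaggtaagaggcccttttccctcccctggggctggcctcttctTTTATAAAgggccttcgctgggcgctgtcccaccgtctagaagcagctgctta
Krt18 promoter, chr15:102027966-102028265, plus strand: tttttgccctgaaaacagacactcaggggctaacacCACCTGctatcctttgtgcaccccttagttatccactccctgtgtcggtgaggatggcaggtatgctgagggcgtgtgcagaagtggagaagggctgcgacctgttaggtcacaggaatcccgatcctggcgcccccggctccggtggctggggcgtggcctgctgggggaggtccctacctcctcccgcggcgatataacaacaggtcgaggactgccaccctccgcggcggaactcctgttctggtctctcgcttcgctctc
Krt7 promoter, chr15:101412153-101412452, plus strand: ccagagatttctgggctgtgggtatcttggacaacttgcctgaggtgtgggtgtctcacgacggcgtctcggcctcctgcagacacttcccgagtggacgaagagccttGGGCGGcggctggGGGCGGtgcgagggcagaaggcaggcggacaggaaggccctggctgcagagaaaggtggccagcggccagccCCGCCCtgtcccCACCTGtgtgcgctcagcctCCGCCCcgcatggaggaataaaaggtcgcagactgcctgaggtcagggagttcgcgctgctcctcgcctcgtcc

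The E-box CACCTG was present once in each of the 3 keratin promoters and in 6 of the 8 genes with a promoter in the RefSeq table, against 20.2% of 32851 promoters of the same length. Its first base lay 111 bases before the start of *Krt8*, 214 before that of *Krt18* and 44 before that of *Krt7*. The *Krt7* promoter held 4 GGGCGG matches, 2 on each strand, and the *Krt8* and *Krt18* promoters held none, where 35.7% of all promoters hold at least 1. The *Krt8* promoter held TATAAA on both strands, in overlapping letters at its start site (13.6% of all promoters), together with single matches to the Onecut core (7.54%) and the Rbpj core (25.6%). The remaining motifs searched were CCAAT (the CCAAT box), GTTAAT (bound by Hnf1 factors), TGTTTAC (bound by forkhead factors), ACAATG (bound by Sox factors) and TGACTCA (bound by AP-1), and none of these matched in the 3 promoters. G and C made up 58.0% of the *Krt8*, 61.3% of the *Krt18* and 66.3% of the *Krt7* promoter, above the median of 52.7% over all promoters. These matches describe the letters of the windows only.

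*Krt8* was the most abundant of the 9 genes by mean normalised count in every group. At P1 its normalised counts, which are reads divided by the size factor of the library, were 19842, 24665 and 18663 in null islets, against 26300, 14600 and 13599 in wild-type islets. The values overlapped, and wild-type replicate 1 was well above the other wild-type libraries. At week 8 they were 12170, 11377 and 11344 in the 3 null animals, against 37426, 19129 and 30836 in wild-type islets. Every null animal was below every wild-type animal, and the null animals lay within a narrow range. The means at week 8 were 11630 ± 467 in null and 29131 ± 9267 in wild-type islets (SD, n = 3 each), and the log2 fold change was -1.27 with an SE of 0.22 (adjusted p = 0.0030 by limma). At P1 the log2 fold change was 0.27 ± 0.27 (adjusted p = 0.65).

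*Krt18* had much the same order of libraries. Its normalised counts at P1 were 18437, 21919 and 15690 in null islets, against 21815, 11709 and 12107 in wild-type islets, with overlap between the genotypes. At week 8 they were 8729, 7645 and 8420 in null islets, against 29302, 15465 and 25418 in wild-type islets. The lowest wild-type animal, replicate 2, was well above the highest null value. The *Krt18* log2 fold change was -1.45 ± 0.22 at week 8 (adjusted p = 0.0014) and 0.35 ± 0.27 at P1 (adjusted p = 0.56).

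For each of *Krt8* and *Krt18* the profile over the 12 libraries most like its own, among genes with a mean normalised count of at least 50, was that of the other. The root mean square difference between their centred log2 profiles was 0.13. The ratio of *Krt8* to *Krt18* reads within a library was 1.08 to 1.19 in P1 null, 1.12 to 1.25 in P1 wild-type, 1.35 to 1.49 in week 8 null and 1.21 to 1.28 in week 8 wild-type libraries. At week 8 this ratio did not overlap between the genotypes, so *Krt18* was lower relative to *Krt8* in null islets, by a small amount.

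*Krt19* (ENSMUSG00000020911), on chromosome 11, is a type I keratin without a tail domain and a much used duct marker. The P1 values were 1791, 2005 and 1620 normalised counts in null islets, against 2946, 1485 and 1224 in wild-type islets. The null values lay inside the wild-type range, and the log2 fold change was 0.04 ± 0.29 (adjusted p = 0.96). The week 8 values were 201, 140 and 128 in null islets, against 2112, 609 and 1993 in wild-type islets. All null animals were far below the lowest wild-type animal, and wild-type replicate 2 was far below the other wild-type animals. Week 8 means were 156 ± 39.0 in null islets, against 1571 ± 836 in wild-type islets, and the log2 fold change of -3.15 ± 0.41 (adjusted p = 8.2e-04) was the lowest of the 9 genes. Leaving out each week 8 library in turn gave -3.73 to -2.84, called each time.

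*Krt7*, a type II keratin often found with *Krt19* in ducts, did not follow it. At P1 it had 2174, 2506 and 3613 normalised counts in null islets, against 5716, 4063 and 3748 in wild-type islets. Every null value was below every wild-type value, and the log2 fold change was -0.71 ± 0.23 (adjusted p = 0.21). At week 8 it had 4096, 3135 and 3946 in null islets, against 2570, 2556 and 2385 in wild-type islets. Here every null value was above every wild-type value, and the log2 fold change was 0.56 ± 0.13 (adjusted p = 0.0092). This call depended on single libraries and on the fit. It was lost without the null animal with 3946 normalised counts (adjusted p just above 0.05), without wild-type replicate 3 (adjusted p = 0.0516) and in a fit of all 12 libraries (adjusted p = 0.0527). The deposited length of *Krt7*, 7049 bases, is the union of all its exons in the GENCODE M21 annotation, whereas its longest coding transcript there has 4094 bases.

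**Figure D1:**
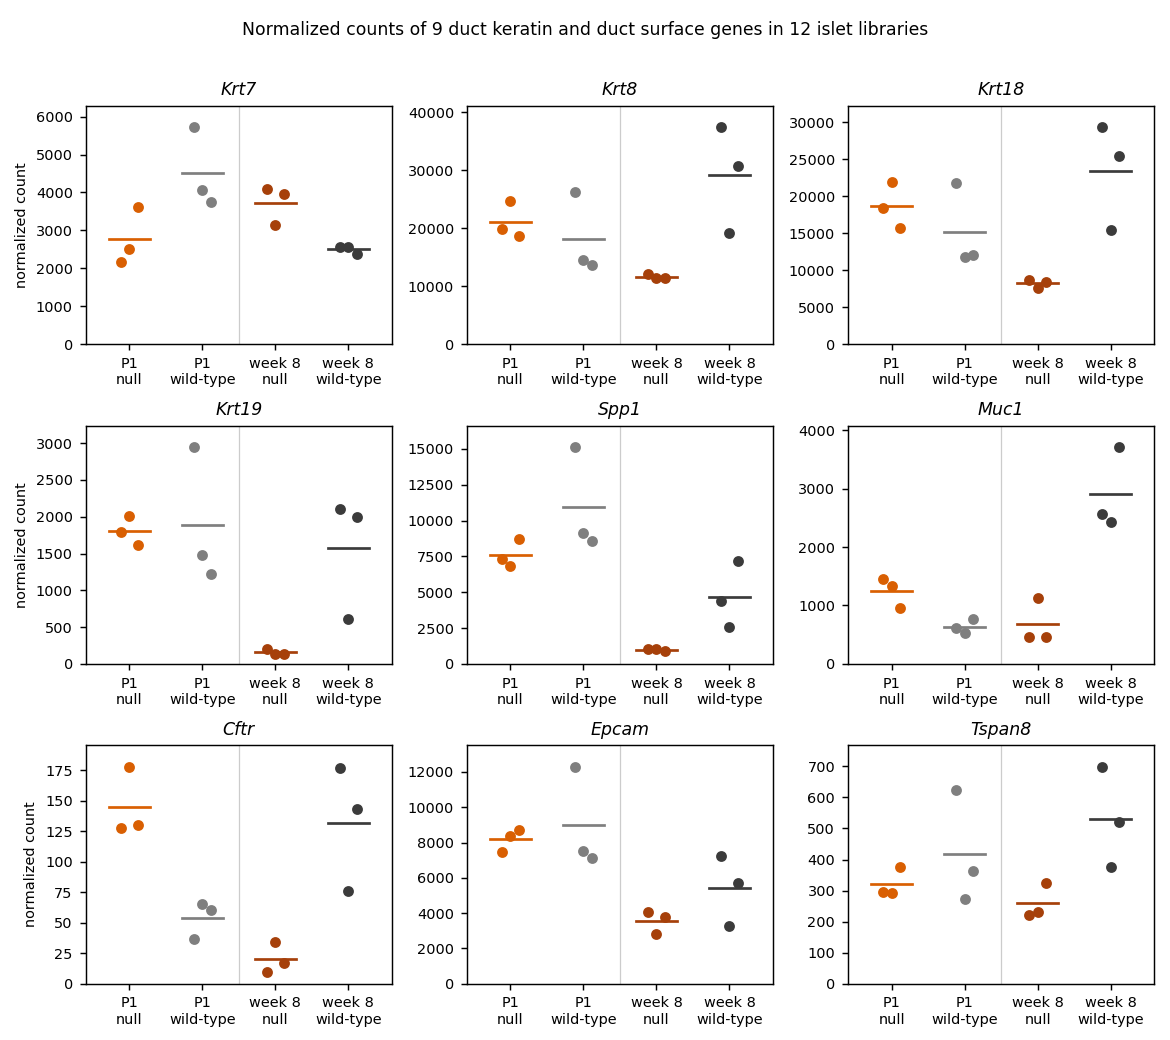
Normalised counts (reads divided by the size factor, linear axes from 0) of the 9 genes, by group, with 1 point per library and a line at the group mean. At week 8 the null points lie below the wild-type points for *Krt8*, *Krt18*, *Krt19*, *Spp1*, *Muc1*, *Cftr* and *Tspan8*, above them for *Krt7*, and overlap them for *Epcam*.

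Ratios between keratins of the same library do not depend on the size factors. *Krt7* had 20.4, 22.4 and 30.8 reads per *Krt19* read in the 3 null animals at week 8, against 4.20 in wild-type replicate 2 and 1.22 or less in the other wild-type animals. At P1 the ratio was 1.21, 1.25 and 2.23 in null libraries, against 1.94, 2.73 and 3.06 in wild-type libraries. The 3 week 8 null animals stood above the other 9 libraries, with no overlap. *Krt19* had 0.0113 to 0.0165 reads per *Krt8* read in week 8 null libraries, against 0.0318 to 0.0646 in week 8 wild-type libraries. At P1 these ranges were 0.0813 to 0.0903 in null and 0.0900 to 0.112 in wild-type libraries, so *Krt19* was lower relative to *Krt8* in null islets at week 8 and the ranges touched at P1.

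**Figure D2:**
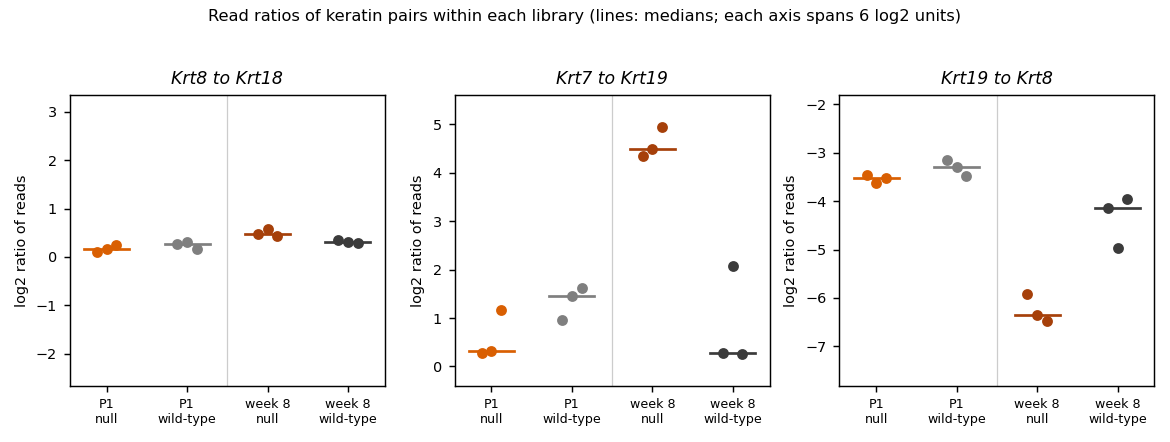
log2 ratio of reads for 3 pairs of keratins within each library, with 1 point per library, a line at the group median and the same span of 6 log2 units on each axis. The *Krt7* to *Krt19* ratio of the week 8 null libraries, 20.4 to 30.8 on a linear scale, lies above all other libraries, while the *Krt8* to *Krt18* ratio stays between 1.08 and 1.49 in all of them.

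*Spp1* (ENSMUSG00000029304), on chromosome 5, encodes osteopontin, a secreted phosphoprotein made by duct cells and also by macrophages. At P1 it had 7313, 6804 and 8707 normalised counts in null islets, against 15125, 9142 and 8609 in wild-type islets. The highest null value lay just above the lowest wild-type value, and the log2 fold change was -0.49 ± 0.23 (adjusted p = 0.37). At week 8 it had 1005, 1019 and 891 in null islets, against 4365, 2569 and 7170 in wild-type islets. The null animals were close together and all below the wild-type animals, which spread widely.

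The means of *Spp1* at week 8 were 972 ± 70.6 in null and 4702 ± 2319 in wild-type islets, a log2 fold change of -2.15 ± 0.29 (adjusted p = 9.3e-04). Macrophage markers were low in all groups, with 13 genes taking 0.0102% to 0.0133% of the reads in week 8 null and 0.0100% to 0.0115% in week 8 wild-type libraries. On normalised counts 5 of those 13 genes were lower in week 8 null islets and none was higher, where 15.8% of all genes tested were lower. Their median log2 fold change was -0.69. Among the lower genes *Cd14*, the monocyte and macrophage co-receptor for endotoxin, was at -2.54 ± 0.39, *Csf1r* at -0.91 ± 0.15 and *C1qb* at -0.76 ± 0.20. The part of macrophages in the *Spp1* difference was not tested.

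*Muc1* (ENSMUSG00000042784), on chromosome 3, encodes a transmembrane mucin of the apical surface of ducts and acini. P1 libraries had 1460, 1325 and 960 normalised counts in null islets, against 611, 528 and 766 in wild-type islets. All null values were above all wild-type values, and the log2 fold change of 0.97 ± 0.21 had an adjusted p of 0.11. Week 8 libraries had 462, 1131 and 464 in the 3 null animals, against 2558, 2431 and 3708 in wild-type islets. All null values were below all wild-type values, the null animal with 1131 stood apart from the others, and the log2 fold change was -2.19 ± 0.31 (adjusted p = 0.0012). The animal with the high *Muc1* value also had the highest acinar share of the null animals, 24.3%, against 12.9% and 14.1% in the others.

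Set against the acinar markers of the same library, *Muc1* had 0.199, 0.217 and 0.177 reads per 1000 acinar marker reads in the week 8 null animals, against 0.158, 0.150 and 0.176 in the wild-type animals. On this scale the null animals were slightly above the wild-type animals instead of below them. At P1 the same ratio was 0.323 to 0.596 in null and 0.822 to 1.91 in wild-type libraries. For *Cftr* at P1 it was 0.0282 to 0.0809 in null (median 0.0488) and 0.0647 to 0.238 in wild-type libraries (median 0.0791), with overlap. For *Krt7*, *Krt8*, *Krt18*, *Krt19*, *Spp1*, *Epcam* and *Tspan8* every P1 null library was below every P1 wild-type library on this scale. For *Spp1* the ratio was 0.195 to 0.434 in week 8 null and 0.159 to 0.341 in week 8 wild-type libraries, and for *Cftr* it was 0.00406 to 0.00662 in null and 0.00468 to 0.0109 in wild-type libraries, with overlap for both. *Krt19* had 0.0268 to 0.0867 reads per 1000 acinar marker reads in week 8 null and 0.0377 to 0.131 in week 8 wild-type libraries, which also overlapped. *Krt7* had 0.601 to 1.77 in null and 0.114 to 0.159 in wild-type libraries, and *Epcam* had 0.544 to 1.75 in null and 0.201 to 0.448 in wild-type libraries, without overlap. *Tspan8*, which was lower in null islets by normalised count, had 0.0441 to 0.124 in week 8 null and 0.0233 to 0.0432 in week 8 wild-type libraries, so on this scale every null animal was above every wild-type animal. *Krt8* had 2.18 to 5.26 in null (median 4.32) and 1.18 to 2.32 in wild-type libraries (median 1.47). *Krt18* had 1.46 to 3.77 in null (median 3.21) and 0.956 to 1.81 in wild-type libraries (median 1.21). The medians of both keratins were higher in null islets on this scale, and their ranges overlapped. This scale moves with the acinar reads. They took 11.4% to 26.5% of reads in P1 null and 2.21% to 6.91% in P1 wild-type libraries. At week 8 they took 12.9% to 24.3% in null and 49.7% to 55.9% in wild-type libraries. A gene with an unchanged share of reads would thus be lower in null islets at P1 and higher at week 8. How many of all genes separate on this scale was not measured.

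*Cftr* (ENSMUSG00000041301), on chromosome 6, encodes the cyclic AMP-regulated chloride channel that drives bicarbonate secretion by ducts. It was the least expressed of the 9 genes, with 14 to 215 reads in a library. At P1 it had 128, 178 and 130 normalised counts in null islets, against 36.5, 65.8 and 60.3 in wild-type islets. At week 8 it had 9.40, 34.2 and 17.4 in null islets, against 177, 75.7 and 144 in wild-type islets. The genotypes did not overlap at either age, with the null islets above at P1 and below at week 8. The log2 fold change was 1.43 ± 0.29 at P1 (adjusted p = 0.10) and -2.73 ± 0.47 at week 8 (adjusted p = 0.0027).

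The P1 result of *Cftr* depended on the method and on a single library. The adjusted p of *Cftr* came to 0.0441 on leaving out P1 wild-type replicate 1, which was the lowest wild-type library for this long gene, 0.0472 after removal of the trend with gene length and 6.0e-04 by DESeq2, while the log2 fold change stayed between 1.17 and 1.59 over 19 alternatives. *Muc1* at P1 had an adjusted p of 0.0485 after removal of that trend and 0.0044 by DESeq2. Over all alternatives the adjusted p at P1 reached up to 0.53 for both genes.

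*Epcam* (ENSMUSG00000045394), on chromosome 17, encodes an adhesion molecule of epithelial cells that is present in endocrine as well as duct cells. Normalised counts at P1 were 7437, 8365 and 8729 in null islets, against 12280, 7528 and 7150 in wild-type islets. Normalised counts at week 8 were 4054, 2838 and 3799 in null islets, against 7245, 3249 and 5697 in wild-type islets. The values overlapped at both ages, and at week 8 it was wild-type replicate 2 that lay among the null animals. The log2 fold change was -0.09 ± 0.22 at P1 (adjusted p = 0.86) and -0.54 ± 0.26 at week 8 (adjusted p = 0.15). Without week 8 wild-type replicate 2 it was -0.87 with an adjusted p of 0.0032, so this animal decided the call. That animal was the lowest of the 3 wild-type animals for 8 of the 9 genes, all but *Krt7*, and had the highest share of beta cell marker reads among them (5.16%).

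*Tspan8* (ENSMUSG00000034127), on chromosome 10, encodes a tetraspanin of epithelial cell membranes. At P1 it had 294, 293 and 374 normalised counts in null islets, against 622, 271 and 362 in wild-type islets, with overlap (log2 fold change -0.31 ± 0.29, adjusted p = 0.62). At week 8 it had 222, 230 and 325 in null islets, against 698, 376 and 522 in wild-type islets. The null animals were all below the wild-type animals, and the log2 fold change was -1.01 ± 0.23 (adjusted p = 0.010).

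Over the 9 genes the median log2 fold change was -1.45 at week 8 and 0.04 at P1, beside 0.02 and 0.03 over all genes tested. At week 8 the genotypes did not overlap for 8 of the 9 genes, 7 of them lower and 1 higher in null islets, where 22.1% and 21.5% of all genes did not overlap in these directions. At P1 they did not overlap for 3 of the 9, *Cftr* and *Muc1* higher and *Krt7* lower, where 12.7% and 10.9% of all genes did so.

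**Figure D3:**
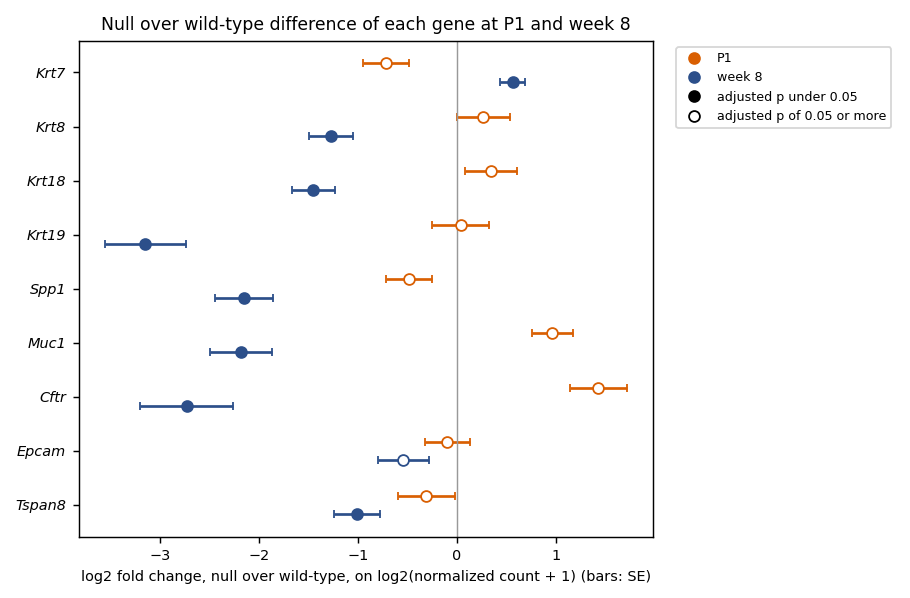
log2 fold change of null over wild-type islets for each gene at P1 and week 8, with bars of 1 SE from limma and filled points where the adjusted p was under 0.05. No point is filled at P1 and 8 are filled at week 8, from -3.15 for *Krt19* to 0.56 for *Krt7*.

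Whether the genotype difference itself changed with age was tested as an interaction in 1 fit of all 12 libraries. It passed for 7 of the 9 genes, 6 of them lower and 1 higher in null islets at week 8 relative to P1, where 13.6% of all genes tested were lower and 8.2% higher. The differences were -4.17 ± 0.60 on the log2 scale for *Cftr* (adjusted p = 4.1e-04), -3.19 ± 0.57 for *Krt19* (adjusted p = 0.0016) and -3.16 ± 0.42 for *Muc1* (adjusted p = 2.9e-04). They were -1.80 ± 0.38 for *Krt18* (adjusted p = 0.0043), -1.67 ± 0.42 for *Spp1* (adjusted p = 0.011), -1.54 ± 0.39 for *Krt8* (adjusted p = 0.012) and 1.28 ± 0.28 for *Krt7* (adjusted p = 0.0056). *Epcam* (-0.44 ± 0.38, adjusted p = 0.44) and *Tspan8* (-0.71 ± 0.40, adjusted p = 0.24) did not pass. *Tspan8* passed without P1 wild-type replicate 1 (-1.04, adjusted p = 0.034). When libraries were scaled to total assigned reads, 3 calls were lost, those of *Krt18* (-0.72, adjusted p = 0.13), *Spp1* (-0.58, adjusted p = 0.22) and *Krt8* (-0.46, adjusted p = 0.35), while the median of all genes moved to 1.02. Relative to that median they were at -1.74, -1.61 and -1.48. These values are no separate test, since this scaling shifts all genes by about the same amount.

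Week 8 and P1 libraries were compared within each genotype in the same fit. In null islets 7 of the 9 genes were lower at week 8 and none was higher, where 25.5% of all genes tested were lower and 21.2% higher. *Krt19* had a week 8 mean of 8.65% of its P1 mean in null islets (log2 difference of -3.54 ± 0.40), *Spp1* had 12.8% (-2.96 ± 0.29), and the log2 difference of *Cftr* was -2.94 ± 0.42. *Epcam* (-1.21 ± 0.27), *Krt18* (-1.17 ± 0.27), *Muc1* (-0.98 ± 0.30) and *Krt8* (-0.85 ± 0.27) were lower as well. *Krt7* (0.45 ± 0.20, adjusted p = 0.074) and *Tspan8* (-0.32 ± 0.29, adjusted p = 0.38) did not pass. The calls of *Krt8* and *Muc1* were lost when single libraries were left out, with adjusted p of up to 0.082 and 0.079.

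In wild-type islets 2 genes were higher and 3 lower at week 8 than at P1, where 15.9% of all genes tested were higher and 16.8% lower. *Muc1* had 2899 ± 703 normalised counts at week 8 and 635 ± 121 at P1 (2.18 ± 0.30, adjusted p = 8.2e-05). *Cftr* had 132 ± 51.5 at week 8 and 54.2 ± 15.6 at P1 (1.23 ± 0.42, adjusted p = 0.038). *Spp1* (-1.30 ± 0.29), *Krt7* (-0.82 ± 0.20) and *Epcam* (-0.77 ± 0.27) were lower at week 8. *Krt8* (0.69 ± 0.27, adjusted p = 0.065), *Krt18* (0.63 ± 0.27, adjusted p = 0.084), *Tspan8* (0.39 ± 0.29, adjusted p = 0.32) and *Krt19* (-0.35 ± 0.40, adjusted p = 0.54) did not pass. The calls of *Cftr* and *Epcam* were lost when single libraries were left out, with adjusted p of up to 0.14 and 0.18. The call of *Cftr* was lost as well when libraries were scaled to reads outside the acinar list (0.86, adjusted p = 0.12), where the median of all genes moved to -0.38. In wild-type libraries the acinar share went with age as well, since it was 49.7% or more at week 8 and 6.91% or less at P1, and its part in these differences was not tested.

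The week 8 comparison also depended on what the libraries were scaled to. When they were scaled to total assigned reads, a choice made after seeing the data, the median of all genes moved to 0.80 at week 8. On that scale 6 of the 9 genes passed, *Krt7* at 1.38 and 5 lower, where 10228 of 18054 genes tested were higher and 1049 lower. *Krt8* (-0.46, adjusted p = 0.12) and *Tspan8* (-0.20, adjusted p = 0.50) no longer passed and *Epcam* turned to 0.28 (adjusted p = 0.38). Relative to that median *Krt8* was at -1.26, *Epcam* at -0.53 and *Krt7* at 0.58, close to the values from the deposited normalisation. This closeness follows from the scaling, which shifts all genes by about the same amount, so it is no test of the calls. Scaling to reads outside the acinar list and TMM scaling left all 8 calls in place.

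Levels of different genes were compared per length, as RPKM, reads scaled to the assigned reads of the library and to the deposited transcript length. *Krt18* and *Krt8* led in all 4 groups, with mean levels of 844 and 740 RPKM in P1 null, 827 and 767 in P1 wild-type, 308 and 336 in week 8 null and 493 and 477 in week 8 wild-type islets. Neither could be placed above the other, since their values overlapped in every group. In P1 wild-type islets the values of both also overlapped those of *Spp1*. *Spp1* and *Epcam* came next, at 30.6 and 91.9 RPKM in week 8 null and 82.2 and 78.2 in week 8 wild-type islets. Their values overlapped in every group except week 8 null islets, where every *Epcam* value was above every *Spp1* value. In that group *Spp1* could not be placed above *Krt7*, since their values overlapped. *Krt19* averaged 4.42 RPKM in week 8 null and 24.8 in week 8 wild-type islets, and in week 8 null islets it ranked above *Cftr* alone. *Cftr* was the lowest in every group, at 0.131 in week 8 null and 0.502 in week 8 wild-type islets, below all values of the next gene. *Krt7* averaged 27.7 RPKM in week 8 null and 10.5 in week 8 wild-type islets on the deposited length, and 47.7 in null and 18.1 in wild-type islets on the length of its longest coding transcript, where its mean was above that of *Spp1* in week 8 null islets. Together the 9 genes took 0.128% to 0.172% of the reads in week 8 null and 0.143% to 0.271% in week 8 wild-type libraries.

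Some exon bases of 5 of the 9 genes are shared with another annotated gene in GENCODE M21. These are 77 bases of *Krt7*, 101 of *Krt8*, 129 of *Cftr* and 4 of *Tspan8* with genes of the opposite strand, and 309 bases of *Spp1* with a gene model of the same strand. *Krt8* also has a processed pseudogene on chromosome 7. The libraries were strand-specific, but whether the counting used strand is not given in the sources used here, so reads from shared bases cannot be told apart.

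Other genes of the duct programme were read beside the 9 at week 8. Of 18 entries for 16 transcription factors of duct and progenitor epithelium, 11 were lower and 2 higher in null islets, with a median log2 fold change of -1.06, where 15.8% of all genes tested were lower and 12.3% higher. *Sox9*, which maintains duct and progenitor identity, averaged 183 ± 43.7 normalised counts in null and 1000 ± 269 in wild-type islets (-2.43 ± 0.24). *Yap1*, the coactivator of the Hippo pathway (-1.96 ± 0.21), and *Hes1*, a target of Notch (-1.68 ± 0.18), were lower too, while *Prox1* (0.49 ± 0.11) and 1 of 2 entries of *Glis3* (0.55 ± 0.18) were higher.

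Of 23 other genes used as duct markers 14 were lower and none higher (median -1.61), among them the surface glycoprotein *Cd24a* (-1.61 ± 0.14), the secreted matrix protein *Ctgf* (-1.71 ± 0.19) and the trefoil peptide *Tff2* (-2.55 ± 0.29). *Tff2* averaged 6862 normalised counts in week 8 null and 37322 in week 8 wild-type islets, but 3515 in P1 null and 440 in P1 wild-type islets. Its means thus changed direction with age, as the acinar markers did, and the part of acinar cells in its difference was not tested. Of 17 genes of ion, water and bicarbonate transport, in which *Cftr* acts, 9 were lower and 3 higher (median -1.21). The water channel *Aqp1* (-3.54 ± 0.50), the calcium-activated chloride channel *Ano1* (-1.60 ± 0.20) and *Slc9a3r1*, a scaffold that binds *Cftr* (-1.04 ± 0.14), were lower. The potassium channel *Kcnma1* (1.30 ± 0.13), the adenosine receptor *Adora2b* (1.96 ± 0.31) and the guanylate cyclase receptor *Gucy2c* (0.94 ± 0.25) were higher.

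Of 9 other keratins tested 4 were lower and none higher (median -1.62), including the type I keratins *Krt23* (-2.80 ± 0.34) and *Krt17* (-3.40 ± 0.45) and the type II keratin *Krt80* (-1.62 ± 0.30). Of 16 proteins that anchor keratin filaments 8 were lower and 1 higher (median -0.85), with the desmosomal proteins *Perp* (-2.11 ± 0.17) and *Pkp3* (-1.61 ± 0.29) lower and the linker *Dst* (0.70 ± 0.12) higher. Of 26 epithelial junction and polarity genes 7 were lower and none higher (median -0.42), among them *Cldn3* (-1.24 ± 0.22), a claudin of tight junctions, and the polarity gene *Pard6b* (-1.36 ± 0.20).

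Among relatives of *Tspan8*, 8 of 23 tetraspanin entries were lower and 6 higher (median -0.38), with *Cd9* (-2.13 ± 0.24) lower and *Tspan7* (0.69 ± 0.13) higher. Of 8 genes in the list of mucins besides *Muc1*, 1 was higher, *Muc4* (0.96 ± 0.19), and 1 lower, the adhesion molecule *Mcam* (-1.02 ± 0.17), with a median of 0.01. These counts are near the 15.8% lower and 12.3% higher among all genes tested. However, 5 of the 8 had a mean normalised count under 10 and 5 had a library at 0, so the counts and the median say little about mucins. Of 11 osteopontin receptors 4 were lower and none higher (median -0.34), among them the integrin subunits *Itga5* (-2.11 ± 0.28), *Itga9* (-1.37 ± 0.27) and *Itga8* (-1.73 ± 0.37).

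Under total read scaling the medians of the junction genes (0.38), tetraspanins (0.44) and osteopontin receptors (0.47) turned above 0, though not above the shift of 0.80 in all genes. At P1 none of the genes in these 9 lists passed the test by limma. At week 8 the medians of the lists stood beside 0.02 over all genes tested, and their counts beside 15.8% lower and 12.3% higher.

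Markers of other cell types moved at week 8 as well. All 31 acinar markers were lower in null islets (median -2.45), as were all 12 mesenchymal (median -2.08) and 8 of 11 endothelial markers (median -1.01), whereas 9 of 12 beta cell markers were higher (median 1.01). Of 12 entries for alpha, delta and PP cell markers 1 was lower, *Hhex*, and none higher (median -0.36), where 15.8% of all genes tested were lower. Mesenchymal markers took 0.0215% to 0.0427% of the reads in week 8 null and 0.0410% to 0.0858% in week 8 wild-type libraries, and endothelial markers took 0.0400% to 0.0618% in null and 0.0459% to 0.0653% in wild-type libraries. At P1 the acinar markers had a median of 2.66 with 2 of 31 called by limma, *Rbpjl* and *Try4*, both higher in null islets, and 29 called by DESeq2. The part of these cell types in the results on the 9 genes was not tested.

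**Figure D4:**
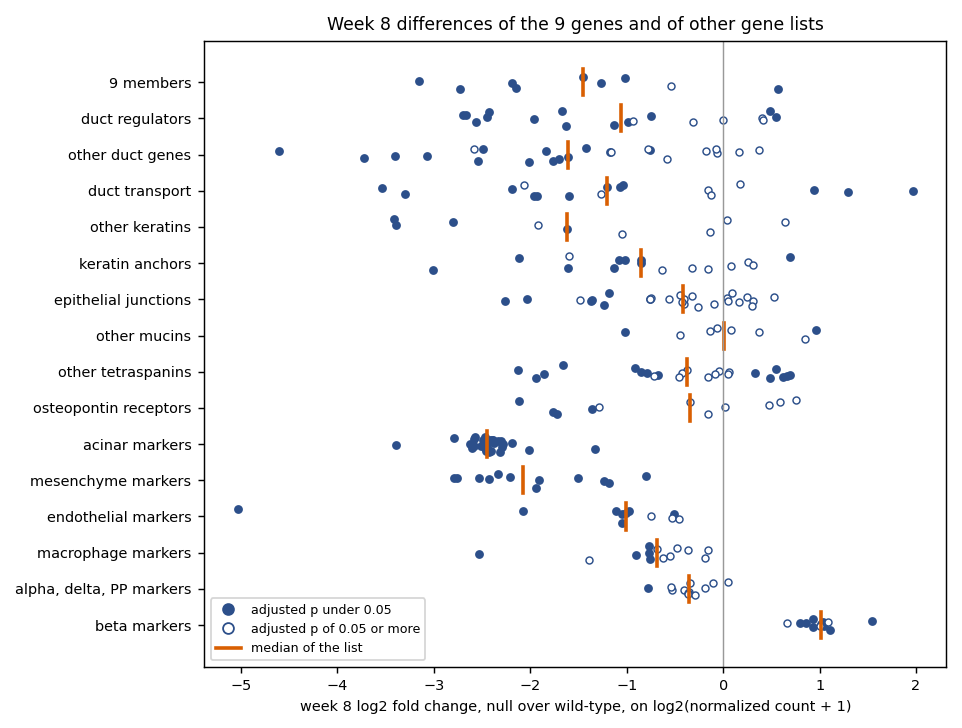
log2 fold change of null over wild-type islets at week 8 for each gene of the 9 and of 15 other lists, with 1 point per gene, filled where the adjusted p was under 0.05, and a bar at the median of the list. The 9 genes have a median of -1.45, between the acinar markers (median -2.45) and the beta cell markers (median 1.01), and *Krt7* is the single gene of the 9 above 0, at 0.56.

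The profile most like each of the 9, by the root mean square difference of centred log2 profiles over the 12 libraries, belonged to a known duct gene in some cases only. *Krt19* was most like *Car2*, a carbonic anhydrase of duct cells (0.28), followed by *2200002D01Rik* (0.31). *Cftr* was most like *Itgb4*, an integrin subunit of epithelial basal surfaces (0.36), followed by the metal transporter gene *Slc39a8* (0.38). *Spp1* was nearest to *Trim47* and *Mgst1* (0.27 and 0.28), *Muc1* to *Acacb* and the gap junction gene *Gjb1* (0.25 each), and *Tspan8* to *B2m* and *Arl6ip5* (0.19 and 0.24). *Krt7* was nearest to *BC022687* and *March9* (0.13 and 0.15), and *Epcam* to *Clic1* and *Schip1* (0.099 and 0.11). Beside each other, *Krt8* was next nearest to *Fdx1* (0.20) and *Krt18* to the ribosomal protein gene *Rpl12* (0.19). These are descriptions over the same 12 libraries that gave the comparisons.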

How the data were processed

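RNA sequencing of islets gave 12 libraries, 3 for each genotype and age, grouped by the sample labels. The authors deposited a signal for each gene and library, namely reads per gene divided by a DESeq size factor, with their own group means, folds, log2 folds, p-values and adjusted p-values, which were not used. Tools in the submitters' processing notes were DESeq 1.10.1 and bedtools 2.11, with the mm9 build. No aligner or counting option is named there. Values came in whole steps of 1 read per library (tolerance 0.001), so reads were recovered. Libraries of a group differed by more than sampling noise.

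Genes with a mean of at least 1 in the libraries fitted were tested with limma 3.58.1 (trend) on log2(value + 1), within each age, or in 1 fit of 12 libraries for the interaction and age differences, in R 4.3.3. This replaced the edgeR test written for raw counts. Fold changes on this scale understate the change of low genes. Alternatives were edgeR 4.0.16, DESeq2 1.42.0 and limma-voom on recovered reads, pseudocounts of 0.1 and 10, no filter or a mean of at least 10, TMM, total read and non-acinar scaling, a length trend (loess, span 0.4), an adjusted p of at most 0.1, a fit of 12 libraries, a replicate block at P1 and leaving out each library. Total read scaling was added after seeing the data. Tests were tested on simulated data.

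Members, lists and tests were chosen with earlier results of these data known. Genes named are the 9 members, *Aldh1b1*, up to 3 higher and 3 lower genes per list with the smallest adjusted p, and the 2 most alike genes per member. Promoters are from RefSeq (GRCm38.p6), which differs from the mm9 build of the reads, and 8 of 9 members matched. Symbols with several entries were tested entry by entry. Python 3.11.15, pandas 2.3.3 and matplotlib 3.10.9 were used.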

Additional observations from a re-analysis of the deposited data

Results flagged for a closer look

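For 7 of the 9 genes the difference between null and wild-type islets itself differed between week 8 and P1, by the interaction term of the fit of all 12 libraries (limma, adjusted over all genes tested). The week 8 minus P1 difference in log2 fold change was -4.17 ± 0.60 for *Cftr*, -3.19 ± 0.57 for *Krt19* and -3.16 ± 0.42 for *Muc1*. It was -1.80 ± 0.38 for *Krt18*, -1.67 ± 0.42 for *Spp1*, -1.54 ± 0.39 for *Krt8* and 1.28 ± 0.28 for *Krt7* (SE). The calls of *Krt18*, *Spp1* and *Krt8* were lost under total read scaling (-0.72, -0.58 and -0.46). *Cftr*, *Muc1* and *Krt7* are the members whose null and wild-type libraries were fully separated at both ages and in opposite directions. Acinar markers, whose share of reads also differed between genotypes in opposite directions at the 2 ages, had a median interaction of -4.96, with 31 of 31 called, and their part in these values was not tested.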

How the results depend on the processing

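At P1, 2 of the 9 genes passed by DESeq2 and 2 after removal of the length trend (*Muc1* and *Cftr* each time), against 0 in the reported test, and leaving out single libraries gave 0 to 1. The interaction passed for 4 genes (1 higher, 3 lower) under total read scaling, where 9512 of 18344 genes were higher and 949 lower. The age difference in wild-type islets passed for 8 (1 higher, 7 lower) under that scaling, where 520 of 18344 genes were higher and 14089 lower, so that 7 lower is near the share of all genes, and for 3 to 6 when single libraries were left out, with 3 without week 8 wild-type replicate 3. DESeq2 called 391 genes higher and 211 lower at P1 over the whole table, and removal of the length trend gave 99 and 52, against 10 and 2 by limma. Total read scaling called 10228 genes higher and 1049 lower at week 8, against 2234 and 2860, and moved the median of all genes to -0.24 at P1, 1.02 for the interaction, -0.32 for age in null and -1.35 for age in wild-type islets. Scaling to reads outside the acinar list moved it to -0.37 for age in null and -0.38 for age in wild-type islets. On that scale 4 of the 9 genes passed for age in wild-type islets instead of 5, 1 higher and 3 lower. Of 18341 genes 1554 were higher and 6271 lower there, so both counts are near the share of all genes. Signs turned for *Krt19* at P1 (-0.10 by edgeR, -0.089 by DESeq2, -0.23 under total read scaling), and under total read scaling for *Epcam* (0.28 at week 8, 0.64 for the interaction), *Tspan8* (0.37 for the interaction, -0.98 for age in wild-type islets), *Krt8* (-0.68), *Krt18* (-0.74) and *Cftr* (-0.13, all for age in wild-type islets). Leaving out single libraries gave *Krt19* -0.22 to 0.42, *Epcam* -0.24 to 0.15 and *Tspan8* -0.57 to 0.022 at P1, and *Krt19* -0.67 to 0.23 for age in wild-type islets. The cause of these changes was not tested. Libraries at P1 share replicate numbers 1 to 3, but same-numbered null and wild-type libraries did not deviate together (correlations of 0.0047, -0.017 and -0.023). With the replicate block 0 of the 9 genes passed at P1, and 11 genes were higher and 4 lower overall. At week 8 the null animals share no number with the wild-type animals. With 3 libraries a group, the spread between libraries limits what the P1 comparison can show.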
